A study of Mus musculus with 3 samples.

Results

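The common gamma chain cytokine receptors are the surface chains through which lymphocytes read IL-2, IL-4, IL-7, IL-9, IL-15 and IL-21. The 8 mouse genes described here are Il2ra, Il2rb, Il2rg, Il4ra, Il7r, Il9r, Il15ra and Il21r, taken by name from a table of 55536 annotated genes. They were measured by polyA-selected RNA-seq in activated regulatory T cells, primary cells from a 4-month-old male mouse of the strain Foxp3CreERT2 x Rosa26YFP. The Foxp3CreERT2 allele places an inducible recombinase under Foxp3, so the recombinase is made where Foxp3 is expressed, and Rosa26YFP is a fluorescent reporter. All 3 libraries form 1 group, labelled technical replicates 1, 2 and 3 of 1 biological replicate, and there was no control, so levels, ratios and the spread between libraries are given and no conditions are compared. Errors and p-values therefore cover only the spread between these libraries, and not that between mice.

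The family works by sharing chains. Il2rg encodes the common gamma chain, which binds no cytokine well alone but completes the receptor of every cytokine of the group. Each cytokine is recognised by a private chain, and IL-2 and IL-15 additionally share the beta chain encoded by Il2rb. Il2ra (CD25) and Il15ra are the alpha chains of the IL-2 and IL-15 receptors, which hold their ligand and add little signalling of their own. The tails carry the kinases Jak1, on the private or beta chain, and Jak3, on the common gamma chain, and these activate STAT proteins. Regulatory T cells are known for high CD25, for dependence on IL-2 made by other T cells, and for low Il7r relative to conventional T cells.

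A group of 6 of the 8 chains carries the WSXWS motif, a short tryptophan and serine signature close to the membrane that marks class I cytokine receptors. Il2ra and Il15ra have a different extracellular fold and lack it. The codons of the motif are shown because they define the family at the sequence level. Capitals mark the 15 motif bases on the coding strand, in the main transcript of each gene from GENCODE release M21 on mouse build mm10.
Il2rb (chr15:78485763-78485777, minus strand): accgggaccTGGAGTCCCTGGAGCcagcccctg
Il2rg (chrX:101266215-101266229, minus strand): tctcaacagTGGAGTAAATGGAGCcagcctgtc
Il4ra (chr7:125571554-125571568, plus strand): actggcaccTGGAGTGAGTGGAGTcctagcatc
Il7r (chr15:9511151-9511165, minus strand): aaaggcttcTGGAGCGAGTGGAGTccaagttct
Il9r (chr11:32193211-32193225, minus strand): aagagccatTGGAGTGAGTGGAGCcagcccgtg
Il21r (chr7:125628998-125629012, plus strand): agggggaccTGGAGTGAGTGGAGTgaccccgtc

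Replicate 3 was the shallowest library, with 6667391 expected counts assigned to genes, against 10981924 in replicate 1 and 9700630 in replicate 2. Replicate 3 also stood apart in composition: the chi-square per degree of freedom between libraries was 30.7 for replicates 1 and 3 and 30.3 for replicates 2 and 3, against 11.4 for replicates 1 and 2. The label was checked against markers. All 6 T cell markers and all 5 regulatory T cell markers were detected, that is, at a TPM (transcript level corrected for length and scaled to a fixed total per library) of at least 1 in every library, and Foxp3 was at 36.0 ± 11.9 TPM (SD, n = 3). Markers of other cells were present too: 5 of 6 B cell markers were detected, with a summed level of 895 to 1196 TPM carried mostly by Ighm. The erythroid markers summed to 712 TPM in replicate 1, 2.77 TPM in replicate 2 and 19.4 TPM in replicate 3. In bulk RNA of this kind, fewer cells of a type and less RNA per cell cannot be told apart.

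All 8 receptor genes were detected. The same threshold was reached by 21.5% of all annotated genes and by 45.3% of protein-coding genes. The median of the 8 mean levels was 132 TPM, beside a median of 0.643 TPM over all 22028 protein-coding genes. The levels ran from Il2rg at 1113 TPM to Il9r at 3.30 TPM. Together the 8 genes took 0.391%, 0.449% and 0.389% of the expected counts of replicates 1, 2 and 3.

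**Figure D1:**
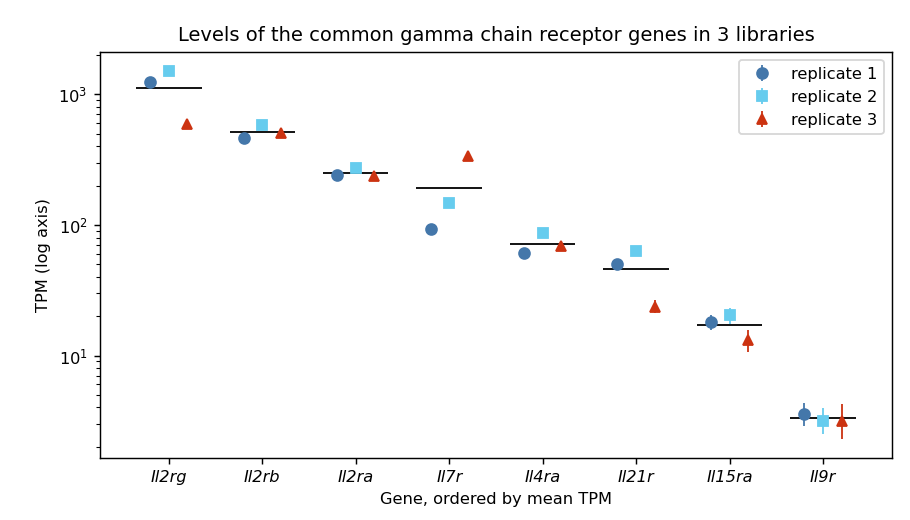
TPM (log axis) of the 8 receptor genes, ordered by mean TPM. Each point is 1 library with an exact 95% Poisson interval from its expected count (counting error only), and each horizontal line is the mean of the 3 libraries. Replicate 3 is the lowest point of Il2rg and Il21r and the highest of Il7r.

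The shared chain was the most abundant member. Il2rg, on chromosome X from 101264378 to 101268255, had 1249, 1497 and 592 TPM in replicates 1, 2 and 3, from 15443, 14946 and 4084 expected counts. Replicate 3 was below both other libraries by a wide margin, so the mean of 1113 ± 468 TPM (SD, n = 3) hides a coefficient of variation of 42.0%. Its mean placed it at rank 111 among protein-coding genes. Without replicate 3 the mean was 1373 TPM.

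The IL-2 receptor chains followed. Il2rb, the beta chain that signals for both IL-2 and IL-15, lies on chromosome 15 from 78479256 to 78495271 and had 459, 578 and 502 TPM in replicates 1, 2 and 3. Il2ra, on chromosome 2 from 11642807 to 11693193, had 239, 272 and 237 TPM. Both were steady, with coefficients of variation of 11.8% for Il2rb and 7.998% for Il2ra, and they ranked 237 and 487 among protein-coding genes. The level of Il2ra was below that of Il2rb in every library.

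Il7r, the IL-7 receptor alpha chain, was the member whose level differed most between libraries. It lies on chromosome 15 from 9505788 to 9530176 and had 92.8, 148 and 337 TPM in replicates 1, 2 and 3, from 2390, 3124 and 5068 expected counts. The shallowest library thus gave the most Il7r counts, and its level was 3.63 times the lowest. The mean of 192 ± 128 TPM (SD, n = 3) became 120 TPM without replicate 3. Its rank among all genes was 1555, 1047 and 408 in replicates 1, 2 and 3.

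The IL-4 and IL-21 receptor chains were at middle levels. Il4ra, which binds IL-4 and also serves the IL-13 receptor, lies on chromosome 7 from 125552120 to 125579474 and had 61.1, 86.1 and 68.6 TPM. Il21r lies on the same chromosome from 125603429 to 125633570, with 23954 bases and no protein-coding gene between the pair, and had 49.8, 63.3 and 23.7 TPM. Replicate 2 was the highest library for both. Replicate 3 was the lowest for Il21r, whose coefficient of variation was 44.1%, and lay between the others for Il4ra.

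Il15ra and Il9r closed the order. Il15ra, which presents IL-15 to cells that carry the beta and gamma chains, lies on chromosome 2 from 11705290 to 11734317, 12096 bases beyond Il2ra with no protein-coding gene between, and had 18.0, 20.3 and 13.1 TPM. Il9r, the IL-9 receptor chain on chromosome 11 from 32187541 to 32200279, had 3.57, 3.17 and 3.15 TPM, from 101, 76 and 44 expected counts. The exact 95% Poisson intervals of Il9r ran from 2.91 to 4.34 TPM in replicate 1, from 2.498 to 3.97 TPM in replicate 2 and from 2.29 to 4.23 TPM in replicate 3. The intervals overlap, so these TPM values set no order among the libraries for Il9r.

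The order Il2rg, Il2rb, Il2ra, Il7r, Il4ra, Il21r, Il15ra, Il9r was read from mean TPM. Of the 7 pairs of neighbours, 2 had overlapping ranges over the 3 libraries. Il2ra was above Il7r in 2 of 3 libraries and below it in replicate 3. Il4ra was above Il21r in each library, but the lowest Il4ra value, 61.1 TPM, was under the highest Il21r value, 63.3 TPM. The widest gap between neighbours was that of Il15ra over Il9r, at 5.19 times.

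Differences between the libraries were tested for each gene by a chi-square test of rounded expected counts against TMM-scaled library sizes, with Benjamini-Hochberg adjustment over 12997 genes. By this measure 7 of the 8 receptors varied beyond sampling noise, as did 65.4% of all genes tested, so the count is near the background. The chi-square with 2 degrees of freedom was 3393 for Il2rg and 2957 for Il7r, then 224 for Il21r, 170 for Il2rb, 87.3 for Il4ra, 62.1 for Il2ra and 9.30 for Il15ra. Il9r did not pass, with an adjusted p of 0.113, but passed in the other quantifications, with adjusted chi-square p of 0.0239 in the second table and 0.0285 in the M4 counts. Il15ra passed with an adjusted p of 0.0166 but not under total-count scaling, where the adjusted p was 0.0613. Without replicate 3, 5 receptors passed, and Il2ra and Il15ra no longer did.

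A stricter test added the trended dispersion of edgeR to the variance. Under it Il7r alone of the 8 varied, with an adjusted p of 0.000632, where 1.18% of all genes tested did. Il2rg had an adjusted p of 0.454 and Il21r one of 0.553 from edgeR, with unadjusted values of 0.0118 and 0.0164. Scaled counts of replicate 3 lay above the mean of the other libraries by 1.44 for Il7r on the log2 scale. They lay below it for Il2rg, at -1.34, and for Il21r, at -1.31. The other 5 receptors were within -0.47 and 0.08 on the same scale, and the direction for Il7r, Il2rg and Il21r was the same in all 3 deposited quantifications.

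Other values moved with replicate 3 as well. The T cell markers summed to 10589, 9917 and 6935 TPM in replicates 1, 2 and 3, and the plasma cell markers to 96.7, 48.3 and 151 TPM. The B cell markers, whose cells also express several of these receptors, summed to 1044, 1196 and 895 TPM. Regulatory T cell markers, of which Il2ra is one, summed to 1481, 1579 and 1534 TPM, but single markers moved in both directions. Ctla4 had 190, 250 and 612 TPM and Foxp3 29.5, 28.7 and 49.8 TPM, both highest in replicate 3. Tnfrsf18 had 663, 587 and 368 TPM and Ikzf2 358, 441 and 268 TPM, both lowest there. Transcripts annotated as retained introns took 6.41%, 7.23% and 7.92% of TPM. The part of these in the receptor differences was not tested.

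The protein-coding genes whose scaled counts followed Il7r most closely over the 3 libraries were Neb, at a distance of 0.02 in centred log2 units, Med30, at 0.10, and Ifngr1, at 0.10. Neb encodes the muscle protein nebulin and Ifngr1 the ligand-binding chain of the interferon gamma receptor. With 3 libraries and 8048 genes searched, such closeness is a description of these libraries.

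Ratios of TPM within a library need no scaling between libraries. They describe mRNA, not the stoichiometry of proteins at the surface. Il2ra stood to Il2rb at 0.522, 0.471 and 0.471 in replicates 1, 2 and 3, which made this the steadier of the ratios among IL-2 receptor chains. Il2rb stood to Il2rg at 0.367, 0.386 and 0.848, and Il2ra to Il2rg at 0.191, 0.182 and 0.400. Both ratios to Il2rg were higher in replicate 3, at 2.25 and 2.14 times the mean of the other libraries, while Il2ra and Il2rb themselves differed little there.

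The chains that pair with the common gamma chain are Il2rb, Il4ra, Il7r, Il9r and Il21r, and their summed TPM was set against Il2rg. The sum was 0.533, 0.587 and 1.58 times Il2rg in replicates 1, 2 and 3, with exact 95% binomial intervals of 0.522 to 0.544, 0.575 to 0.599 and 1.53 to 1.63. In replicates 1 and 2 there was thus more Il2rg mRNA than mRNA of its 5 partners together, and in replicate 3 less. Il7r moved most, at 0.0743, 0.0986 and 0.569 times Il2rg. Il4ra stood at 0.0489, 0.0575 and 0.116 times Il2rg, and Il9r at 0.00286, 0.00212 and 0.00532. Il21r held a narrow ratio to Il2rg, at 0.0398, 0.0423 and 0.0401, since both were low in replicate 3.

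**Figure D2:**
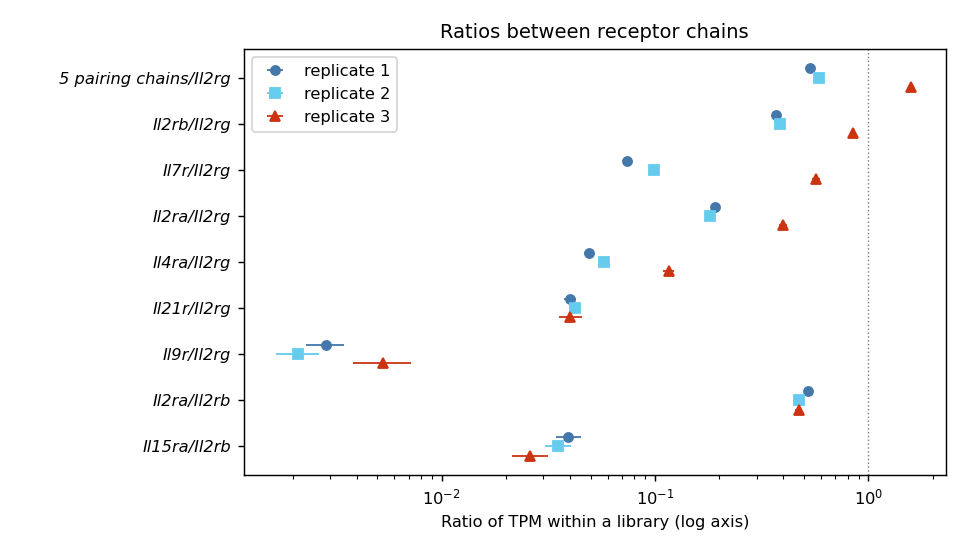
Ratios of TPM within each library (log axis), with exact 95% binomial intervals from the expected counts. The 5 pairing chains are Il2rb, Il4ra, Il7r, Il9r and Il21r, the dotted line marks a ratio of 1, and replicate 3 is the only library in which their sum exceeds Il2rg.

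The alpha chains Il15ra and Il2ra differed in their ratio to the shared beta chain. Il15ra stood to Il2rb at 0.0393, 0.0350 and 0.0260, and to Il2ra at 0.0754, 0.0744 and 0.0552. Il7r stood to Il2ra at 0.388, 0.542 and 1.42, so the IL-7 receptor chain exceeded CD25 at the mRNA level in replicate 3 alone. Il2rg made up 57.5%, 56.1% and 33.3% of the summed TPM of the 8 genes, and Il7r 4.27%, 5.53% and 18.96%.

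The 8 genes have 44 annotated transcripts. Of these, 19 encode a membrane segment, found as a stretch of 19 residues with a mean hydropathy of at least 1.6 after residue 30, and 8 are coding without one. A further 3 have no annotated coding end and 14 have no coding sequence. Il2rb had membrane-coding transcripts only, and so did Il9r in replicates 1 and 2.

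**Figure D3:**
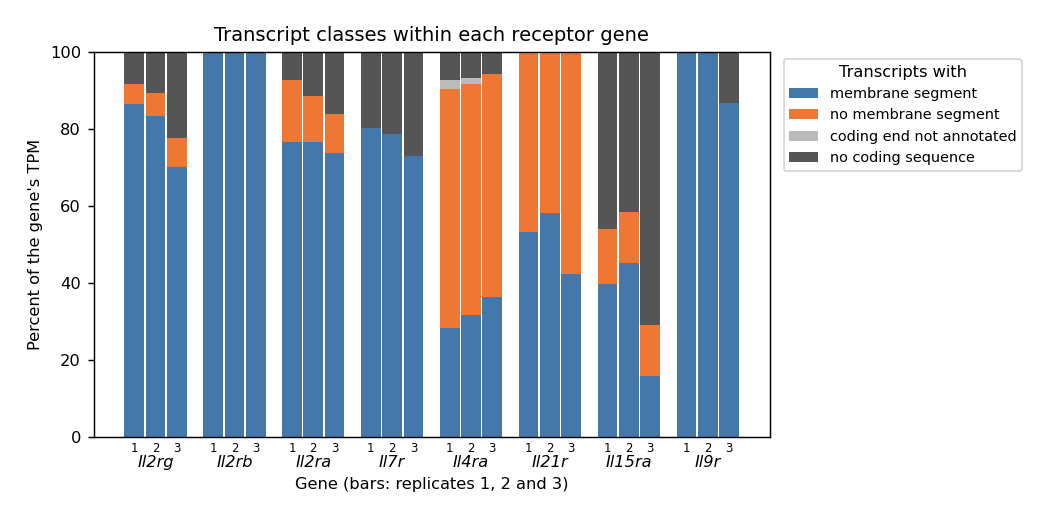
Percent of each gene's TPM held by each class of transcript, with bars for replicates 1, 2 and 3 of each gene. Coding transcripts without a membrane segment hold most of Il4ra and a large part of Il21r, and transcripts without coding sequence hold more of Il15ra, Il2rg and Il2ra in replicate 3 than in the other libraries.

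Most Il4ra signal was assigned to a soluble form. Mouse cells are known to make a soluble IL-4 receptor from an mRNA with an extra exon that ends the protein before the membrane. In the annotation this is Il4ra-205, with a protein of 230 residues and an extra exon of 114 bases at chr7:125571934-125572047 on the plus strand, against 810 residues for the full-length Il4ra-201. The shared 24 bases are shown in lower case and capitals mark the bases after the transcripts part, up to the stop codon in Il4ra-205.
Il4ra-201: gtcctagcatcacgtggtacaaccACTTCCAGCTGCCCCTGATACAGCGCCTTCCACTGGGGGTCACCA
Il4ra-205: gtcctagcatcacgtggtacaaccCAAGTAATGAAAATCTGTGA

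Il4ra-205 held 62.3%, 60.2% and 58.0% of Il4ra TPM in replicates 1, 2 and 3, and Il4ra-201 held 28.2%, 31.6% and 36.3%. The soluble form led in each library. The second quantification gave Il4ra-205 a larger share, at 81.7%, 76.7% and 73.4%. Il4ra-205 has 0 exon bases that no other Il4ra transcript covers, and 2 junctions of its own. Its share rests on reads over those junctions and on where the annotation ends each transcript. Reads within the extra exon bear on it too, since Il4ra-201 lacks that exon, although another Il4ra transcript covers its bases. Its biotype is nonsense-mediated decay. An antisense gene, Gm44876, covers 9.51% of Il4ra exon bases and was listed at 0.07 TPM in replicate 1 and at 0 in the others.

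Il21r was divided between a full-length and a shorter product. Il21r-202 skips exon 7 of Il21r-201, the exon at chr7:125629738-125629834 where the membrane segment begins, and encodes 268 residues against 529. It keeps the WSXWS motif and has no membrane segment. Capitals again mark the bases after the 2 transcripts part, here the first 45 bases of Il21r-201 and the first 120 of Il21r-202.
Il21r-201: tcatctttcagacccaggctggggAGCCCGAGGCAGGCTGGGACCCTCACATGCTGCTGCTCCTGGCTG
Il21r-202: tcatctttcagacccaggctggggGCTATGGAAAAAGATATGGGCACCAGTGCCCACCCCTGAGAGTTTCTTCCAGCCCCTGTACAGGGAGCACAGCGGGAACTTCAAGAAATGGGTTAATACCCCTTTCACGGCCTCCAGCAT

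Il21r-202 held 42.7%, 36.9% and 45.5% of Il21r TPM, and Il21r-201 held 53.3%, 58.2% and 42.2%. The membrane form led in replicates 1 and 2 and not in replicate 3, where Il21r had 269 expected counts in all. In the second quantification Il21r-201 led in each library, with Il21r-202 at 35.02%, 36.1% and 26.4%. Il21r-202 has neither an exon base nor a junction of its own in the annotation, so its share was inferred from reads it has in common with other Il21r transcripts. Whether such a protein is secreted cannot be read from RNA.

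The common gamma chain also has a short product. Activated mouse T cells are known to make a soluble common gamma chain from an mRNA that lacks exon 6, the exon of the membrane segment. Il2rg-203 joins exon 5 directly to exon 7 of Il2rg-201, which lies on the minus strand with exon 6 at chrX:101265630-101265726. It is annotated with 153 residues, because its coding start lies outside the annotated model. Capitals mark the bases after the 2 transcripts part, up to the stop codon in Il2rg-203.
Il2rg-201: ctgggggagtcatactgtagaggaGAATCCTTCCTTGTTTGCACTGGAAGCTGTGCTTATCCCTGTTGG
Il2rg-203: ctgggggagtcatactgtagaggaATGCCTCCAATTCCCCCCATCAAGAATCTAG

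Il2rg-203 held 5.31%, 6.04% and 7.38% of Il2rg TPM in replicates 1, 2 and 3, which came to 66.4, 90.4 and 43.7 TPM. In the second quantification the shares were 3.40%, 4.41% and 4.52%. Il2rg-203 has 1 junction of its own, the one that skips exon 6. The full-length Il2rg-201 held 86.4%, 83.3% and 70.2%. The rest, in Il2rg-202 and the retained-intron transcript Il2rg-204, was largest in replicate 3, where Il2rg-204 had 12.3%, against 4.97% and 5.73% in replicates 1 and 2. Replicate 3 therefore had less Il2rg in total and a smaller part of it as full-length mRNA.

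Il7r was almost wholly full-length among its coding transcripts. Il7r-204, whose protein of 286 residues keeps the membrane segment but loses most of the signalling tail of the 459-residue chain, held 1.55%, 1.78% and 0.50% of Il7r TPM. Its stop codon follows at once where the minus-strand transcripts part, and capitals mark the bases after that point.
Il7r-201: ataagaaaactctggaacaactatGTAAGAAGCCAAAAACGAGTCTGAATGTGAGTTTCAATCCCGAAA
Il7r-204: ataagaaaactctggaacaactatAG

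The full-length Il7r-201 held 78.7%, 76.8% and 72.4%, and the noncoding Il7r-202 held 12.1%, 16.4% and 22.2%. Replicate 3 was the lowest library for Il7r-201 as a share and the highest as a level, at 244 TPM, against 73.1 and 113 TPM in replicates 1 and 2. The higher Il7r level in replicate 3 was thus seen in the full-length transcript too.

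The alpha and beta chains of the IL-2 receptor were mostly full-length. Il2ra-201, the only Il2ra transcript with a membrane segment, held 76.7%, 76.7% and 73.6%, and Il2ra-202, with an open reading frame of 44 residues, held 15.9%, 11.8% and 10.2%. The retained-intron transcript Il2ra-203 held 7.36%, 11.5% and 16.2%. For Il2rb, 2 transcripts encode the same 539-residue protein: Il2rb-201 held 78.9%, 78.6% and 95.2%, and Il2rb-202 held 21.1%, 21.4% and 4.80%. Replicate 3 stood apart in this division, which leaves the encoded protein the same. The second quantification gave Il2rb-202 more, at 31.9%, 31.8% and 18.03%, with replicate 3 again the lowest.

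Il15ra and Il9r had too few counts for firm shares. The longest Il15ra membrane form, Il15ra-201, had 80.0, 67.5 and 8.39 expected counts, and transcripts without coding sequence took 45.9%, 41.7% and 70.9% of Il15ra TPM. Over the 6 receptors with such transcripts, their share was highest in replicate 3 for 5, with Il4ra as the exception. For Il9r, 1 of the 5, this rested on 1 expected count in replicate 3 and 0 in the others. A share highest in replicate 3 was also found for 51.9% of the 7481 detected genes with such transcripts. The median share of those genes was 15.7%, 17.2% and 20.9% in replicates 1, 2 and 3.

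Counting only transcripts with a membrane segment changed several levels. Il4ra was then at 17.2, 27.2 and 24.9 TPM, Il21r to 26.5, 36.8 and 10.02 TPM and Il15ra to 7.18, 9.17 and 2.06 TPM. On this basis the 5 pairing chains summed to 0.538, 0.611 and 1.89 times Il2rg. Il2rb was then above Il2rg in replicate 3, at 502 against 416 TPM, and below it in replicates 1 and 2. The same held in the second transcript table, with 290 against 229 TPM in replicate 3. Il21r was above Il4ra in replicates 1 and 2 of the main tables and below it in replicate 3. In the second transcript table the membrane-coding transcripts of Il4ra had 4.14, 7.24 and 7.88 TPM and those of Il21r 15.9, 20.96 and 9.20 TPM, with Il21r above Il4ra in each library.

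The deposited files hold 3 quantifications of the same reads, and they differ for the common gamma chain. In whole-number counts on release M4, taken per coding base and scaled to the TPM total, Il2rg was at 410 ± 163 TPM and Il2rb was the highest receptor at 920 ± 83.5 TPM (SD, n = 3 each). Il2ra was then at 404 ± 44.1 TPM, a mean close to that of Il2rg, but the 2 genes were level in no library. Il2ra stood to Il2rg at 0.794 and 0.871 in replicates 1 and 2 and at 1.68 in replicate 3. The M4 count of Il2rg was 0.375 of its main expected count, beside a median of 1.37 for 1540 genes with a like coding share of their exons. The gene Gm20489 on the same strand covers 30.5% of Il2rg exon bases and 65.8% of its coding bases, and had M4 counts of 1, 2 and 0. The sources used here do not say how that table treats reads shared by 2 genes.

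In the second transcript table the order of all 8 receptors was as in the main tables. Its TPM was lower throughout, at a median of 0.592 of the main value over detected genes and at 0.516 to 0.565 for the receptors. The ratio of the 5 pairing chains to Il2rg was 0.549, 0.602 and 1.66 there, and 2.40, 2.79 and 7.28 from M4 counts. The excess of Il2rg over its partners in replicates 1 and 2 therefore depends on the quantification, while the higher ratio in replicate 3 was seen in all 3.

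**Figure D4:**
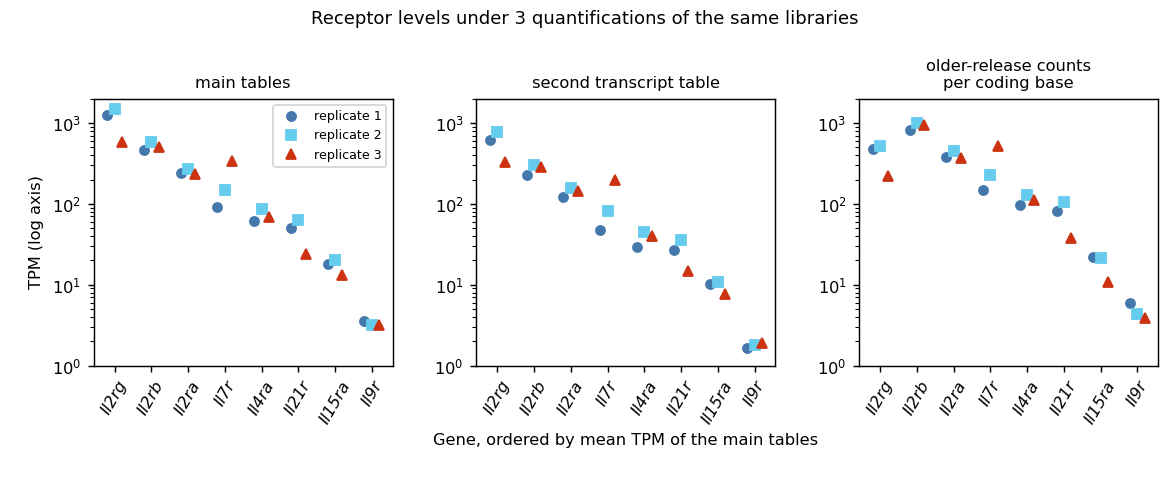
TPM (log axis) of the 8 receptor genes in the main tables, the second transcript table and the M4 counts per coding base, with 1 point per library. Il2rg is the highest gene by mean in the first 2 and stands below Il2rb in the M4 counts, and the position of replicate 3 for Il2rg, Il7r and Il21r is alike in all.

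The cytokines themselves were scarce in these cells. Of 8 ligand genes, 2 were detected, Il4 at 4.03 ± 3.68 TPM and Il2 at 1.24 ± 0.189 TPM (SD, n = 3 each), and Il9, Tslp and Il13 were listed at 0 in every library. Both rested on few counts. Il4 had 8.20, 2.63 and 1.26 TPM in replicates 1, 2 and 3, from 31, 8 and 3 expected counts. Il2 had 1.32, 1.02 and 1.37 TPM, from 11.4, 7.31 and 7.29 expected counts. Of 3 partner chains outside the family, Crlf2, which pairs with Il7r to bind TSLP, was detected at 5.70 ± 2.14 TPM. Il13ra1, which pairs with Il4ra, was at 0.287 TPM in mean and was not detected.

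All 4 Janus kinases were detected. Jak1, which serves every receptor here, was at 299 ± 50.3 TPM, and Tyk2 at 43.2 ± 8.04 TPM. Jak3, the kinase bound by the common gamma chain, was at 25.1 ± 6.92 TPM, far below Il2rg, and Jak2 at 13.8 ± 2.31 TPM (SD, n = 3 each). All 4 varied beyond sampling noise, as did 65.4% of all genes tested, and 0 did when the edgeR dispersion was included, adjusted or unadjusted.

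Among the STAT genes, Stat6, which serves IL-4, was detected at 119 ± 41.3 TPM. Stat5b and Stat5a, which carry the IL-2, IL-7 and IL-15 signals, were detected at 33.3 ± 3.93 and 31.2 ± 2.86 TPM (SD, n = 3 each). Stat6 had 123, 158 and 75.4 TPM in replicates 1, 2 and 3, so replicate 3 was its lowest library.

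Feedback genes and targets of the pathway were expressed throughout. All 8 feedback and phosphatase genes were detected, led by Cish, a STAT5-induced inhibitor, at 129 ± 20.2 TPM and by the phosphatase gene Ptpn6 at 121 ± 50.2 TPM. The lowest were Socs7, at 6.69 ± 1.14 TPM, and Socs1, at 4.14 ± 2.01 TPM. Of 5 adaptor genes 3 were detected, with Pik3r1 at 69.0 ± 24.02 TPM Shc1 at 34.0 ± 0.615 TPM and Grb2 at 26.6 ± 6.002 TPM, and Irs2 and Gab2 were not. All 6 targets were detected, led by the survival kinase gene Pim1 at 272 ± 46.9 TPM and the survival gene Bcl2 at 124 ± 33.2 TPM. At the low end were Foxp3, at 36.0 ± 11.9 TPM, and Pim2, at 31.9 ± 1.72 TPM (SD, n = 3 each). Beyond sampling noise, 7 of 8 feedback genes, 3 of 4 tested adaptors and 5 of 6 targets varied between libraries, near the 65.4% of all genes tested. With the edgeR dispersion 0 did, where 1.18% of all genes did, and an unadjusted p under 0.05 was reached by 1 feedback gene, 1 adaptor and 0 targets.

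The other class I cytokine receptors give a scale for the family. Of 23 such genes, 8 were detected, against all 8 of the common gamma chain group, and the median of their mean levels was 0.270 TPM. Il27ra was the highest at 187 ± 93.3 TPM, with 229, 251 and 79.6 TPM in replicates 1, 2 and 3, and Crlf3 followed at 119 ± 22.0 TPM (SD, n = 3 each). The lowest detected were Il3ra, at 6.08 TPM, and Il12rb2, at 2.67 TPM. Il12rb2 was high in replicate 3, with 1.02, 1.28 and 5.71 TPM, and had an adjusted p of 0.0235 when the edgeR dispersion was included. Of the 9 genes of this list with enough counts to test, 7 varied beyond sampling noise and 2 with the edgeR dispersion, the other being Lifr, which was not detected. Over all genes tested these shares were 65.4% and 1.18%.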

How the data were processed

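PolyA-selected RNA of 3 libraries of 1 group was analysed. Per the file headers, the authors deposited gene and transcript tables on mm10 with the M21 annotation, computed from transcriptome alignments, with an expected count, a TPM and the percent of each gene's TPM held by a transcript. The bounds and SDs in them (unit score) were deposited by the authors and not used. A second transcript table, per the file headers, gives estimated counts and TPM straight from reads and an index, and another table gives whole-number counts on release M4. The sources used here name no programs for the tables, whose column names are those RSEM and kallisto write. No scaling between libraries was applied by the authors.

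The 8 receptors and the lists were chosen with earlier results of these data known. The named genes were all 8 receptors and, from lists of ligands, partner chains, kinases, STATs, feedback genes, adaptors, targets and other class I receptors, the 2 highest and 2 lowest detected, with the 3 genes most like the receptor of widest range. Others are named where a sentence needed them, after their values were seen. A gene of the STAT list that this rule names is not reported here. Symbols came from the transcript names in the second table, and all 8 matched. M4 genes matched M21 IDs in 22195 of 22457 cases, and M4 counts were divided by coding bases.

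Gene-level depth was 6667391 to 10981924 expected counts. Intervals are exact 95% Poisson or binomial ones and cover counting error only, since without molecular identifiers reads can be copies of 1 molecule. Levels are the mean and SD of TPM. Expected counts were rounded and genes averaging 10 or more counts were tested over the 3 libraries by chi-square with 2 degrees of freedom against TMM sizes (edgeR 4.0.16, R 4.3.3), adjusted by Benjamini-Hochberg over all tested genes at 0.05. The edgeR quasi-likelihood test has no contrast with 1 group. A stricter variance added the trended edgeR dispersion, estimated from the same libraries. Test code was checked on simulated counts. Shares are transcript TPM over gene TPM. Alternatives were the other quantifications, TMM-scaled TPM, DESeq2 1.42.0 size factors, total counts, no filter, other detection thresholds and leaving out each library. Sequences are from GENCODE M21 transcripts. Tables and figures used Python 3.11.15, scipy 1.17.1 and matplotlib 3.10.9.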

Additional observations from a re-analysis of the deposited data

How the results depend on the processing

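The median of the 8 mean levels, 132 TPM, was 73.3 TPM in the second transcript table and 206 TPM from M4 counts, and ranged from 96.9 to 160 TPM when each library was left out. Over membrane-coding transcripts alone, chosen after seeing the data, it was 84.9 TPM in the main tables and 47.6 TPM in the second. The order of neighbours, over all transcripts of each gene, held in 7 of 7 pairs except from M4 counts, where it held in 6. It did not hold over membrane-coding transcripts alone, where the mean of Il21r, 24.5 TPM, was above that of Il4ra, 23.1 TPM. The mean ratio of the 5 pairing chains to Il2rg, 0.899, was 4.15 from M4 counts and 2.34 from expected counts with no length scaling, and ranged from 0.560 to 1.08 without 1 library, the lowest being without replicate 3. With membrane-coding transcripts alone, an alternative chosen after seeing the data, it was 1.01. The mean Il4ra-205 share, 60.2%, was 77.3% in the second transcript table and ranged from 59.1% to 61.2% without 1 library. The count of receptors varying between libraries, 7, was 1 under the trended dispersion of edgeR, and also 1 under that dispersion with M4 counts or the second table, both chosen after seeing the data. It was 6 to 8 under the other scalings, filter and quantifications and 5 to 7 without 1 library. All 8 receptors were detected at a TPM of at least 0.1 and 7 at a TPM of at least 10. TMM scaling moved none of the 8 mean levels by more than its SD. No paired analysis was possible because all libraries form 1 group. With 1 biological replicate, the spread between mice is unknown, and 44 to 101 counts limit Il9r.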
